A study of Caenorhabditis elegans with 2 samples.

Results

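The tRNA genes of chromosomes II, III, IV and V were followed in ChIP-seq data, which locate the DNA that comes down with a protein, for the basic helix-loop-helix factor HLH-12. This factor is best known from gonad development, where it is needed for distal tip cells to migrate properly. All 270 genes with the biotype tRNA on these autosomes in the Ensembl WBcel235 annotation were taken, of 612 nuclear tRNA genes and 46890 nuclear genes in all. The material was whole hermaphrodite Caenorhabditis elegans of strain OP538, genotype unc-119(tm4063) III; wgIs538, harvested as young adults 64 h after synchronization as starved L1 larvae. The line carries an integrated transgene for HLH-12 with a C-terminal GFP-FLAG tag, and an anti-GFP antibody brought the tagged protein down. There were 2 biological replicates in 1 group, so the measurements below describe these samples and no test compares groups. Young adults hold every tissue of the worm, 1 transgenic line stands behind both replicates, and no animals without the tagged protein were analysed here.

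Transfer RNAs carry amino acids to the ribosome, and their genes are transcribed by RNA polymerase III from promoter elements that lie inside the gene. The transcription factor TFIIIC binds these elements, the A box near the 5′ end and the B box in the T arm, and a run of T after the 3′ end terminates transcription. The worm genome holds many tRNA genes with identical sequences, both between and inside protein-coding genes. Basic helix-loop-helix factors bind short sequences called E-boxes, and tRNA genes are known to appear in the peak lists of many unrelated factors.

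The isotype, the amino acid that the tRNA carries, was given by RefSeq for 269 of the 270 genes and covered 20 isotypes and 1 selenocysteine gene. The genes were 68 to 122 bp long with a median of 72 bp, and 16 of them held an annotated intron. They comprised 123 distinct sequences, and 197 genes had at least 1 identical copy elsewhere in the nuclear genome. The sequences of 6 genes with some of the strongest peaks are shown from RefSeq (WBcel235, the same assembly as ce11), because the B box and A box matches discussed later lie within them. Capitals mark matches to the B box core GTTCGANNC and, nearer the 5′ end, to the A box part GNNNAGTGG.
F57F5.t1, Ile-TAT, chrV:12002176-12002260, plus strand: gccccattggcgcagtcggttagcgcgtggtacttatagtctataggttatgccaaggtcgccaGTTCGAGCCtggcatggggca
ZK783.t1, Glu-CTC, chrIII:7642158-7642229, minus strand: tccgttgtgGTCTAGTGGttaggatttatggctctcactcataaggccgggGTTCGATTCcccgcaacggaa
Y39B6A.t9, Phe-GAA, chrV:19126044-19126116, plus strand: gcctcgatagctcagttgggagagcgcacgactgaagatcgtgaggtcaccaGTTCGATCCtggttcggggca
C05G6.t1, Val-CAC, chrIV:620482-620554, plus strand: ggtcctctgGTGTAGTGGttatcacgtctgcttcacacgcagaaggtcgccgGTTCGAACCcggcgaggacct
F44A2.t1, Ala-CGC, chrV:9318202-9318273, plus strand: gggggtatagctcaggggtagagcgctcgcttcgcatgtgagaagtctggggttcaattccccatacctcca
T03E6.t1, Gln-CTG, chrV:16592237-16592308, minus strand: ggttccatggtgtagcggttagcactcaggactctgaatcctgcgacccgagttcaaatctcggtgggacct
The alanine and glutamine genes held neither exact match and had pooled peaks of 71.8 and 64.1. Both hold the B box pattern with an A in place of its second G. A missing match therefore does not show that a gene lacks a B box.

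Identical genes lie in different surroundings, so the 60 bp just upstream of 4 of the 9 Lys-TTT copies are shown in lower case throughout. The genes T23F1.t1 and F49C5.t4 had pooled peaks of 108 and 84.2, while W07G4.t1 and Y70C5A.t1 had no summit within 200 bp in any list. The nearest pooled summit lay 322 bp from W07G4.t1 and 1910 bp from Y70C5A.t1. The peaks of T23F1.t1 and F49C5.t4 were each shared with a neighbouring tRNA gene, T23F1.t2 and F49C5.t3. The summits lay at 69 bp from the 5′ end of T23F1.t1 and at -15 bp from that of F49C5.t4. Whether the upstream stretches have a part in the peaks was not tested.
T23F1.t1, chrV:15465026-15465085, plus strand: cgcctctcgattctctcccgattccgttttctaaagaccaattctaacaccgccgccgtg
F49C5.t4, chrII:12541761-12541820, minus strand: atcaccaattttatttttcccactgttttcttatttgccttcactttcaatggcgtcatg
W07G4.t1, chrV:13027101-13027160, minus strand: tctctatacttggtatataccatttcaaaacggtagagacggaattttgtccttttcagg
Y70C5A.t1, chrV:16622132-16622191, minus strand: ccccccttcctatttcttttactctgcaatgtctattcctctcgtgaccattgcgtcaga
In contrast, the Pro-TGG copies R11G10.t1 and R11G10.t2, 2419 bp apart on opposite strands inside avr-15, a glutamate-gated chloride channel gene, had upstream stretches that differed at 3 of 60 bases.
R11G10.t1, chrV:13509633-13509692, plus strand: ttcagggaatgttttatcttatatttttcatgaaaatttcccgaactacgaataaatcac
R11G10.t2, chrV:13507275-13507334, minus strand: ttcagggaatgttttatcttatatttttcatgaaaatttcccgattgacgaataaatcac
R11G10.t1 had a pooled peak of 34.0 with 16.1 in replicate 1 and 16.5 in replicate 2. R11G10.t2 had no pooled peak, though both replicate lists held one, at 15.5 and 12.04. Their mean replicate signals were 16.3 ± 0.276 and 13.8 ± 2.43 (SD, n = 2), so a copy on each side of the pooled list's limit differed little in signal.

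For each gene the value was the highest signal of any peak whose summit lay within 200 bp of the gene. Signal is the authors' own value per peak, it has no stated physical unit, and its read depth is unknown. The ce11 lists held 19782 nuclear peaks in replicate 1, 22556 in replicate 2 and 6661 pooled. The pooled list, called on both replicates together, held a peak at 155 of the 270 genes, or 57.4% with a 95% Wilson interval of 51.4% to 63.2%. By the same rule, 12.1% of all annotated nuclear genes were called, 4.40% of other noncoding genes of at most 200 bp, and 3.01% of consecutive windows along the 4 autosomes, each as long as a 73-bp gene with its 200 bp to each side. Among other short genes the share was 31.0% of 129 snRNA genes, 29.7% of 306 snoRNA genes, 10.9% of 258 microRNA genes and 1.74% of 15363 piRNA genes. Wilson intervals here cover the sampling of genes only, and genes of the same samples are not replicates.

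The list of replicate 1 held a peak at 181 genes, or 67.0% with an interval of 61.2% to 72.4%, beside 26.6% of all genes, 9.65% of other short noncoding genes and 8.69% of windows. The list of replicate 2 held one at 160 genes, or 59.3%, beside 28.8% of all genes, 11.4% of other short noncoding genes and 10.2% of windows. The authors' list cut at a level of IDR, a measure of how well peaks repeat between replicates, holds the strongest pooled peaks. It contained 44 of the genes, or 16.3%, beside 0.998% of all genes, 0.753% of other short noncoding genes and 0.0876% of windows. These 44 genes rested on 41 of the 230 nuclear IDR peaks. Both replicate lists and the pooled list held 127 genes, while 62 genes, or 23.0%, had a peak in none of them. A further 26 genes appeared in replicate 1 alone and 20 in replicate 2 alone.

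Where a peak was present, its signal was high for the list. The pooled signal of the 155 genes had a median of 45.7 and ran from 26.4 to 108, and 92.7% of all nuclear pooled peaks lay below that median. The median over all nuclear peaks was 30.6. Of the genes, 13 had a peak among the 100 strongest nuclear peaks and 78 among the 500 strongest. The 155 genes shared 147 distinct peaks, since 16 neighbouring genes fell in pairs under 8 peaks.

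The strongest peak covered a pair of tRNA genes on V, T23F1.t1 (Lys-TTT) and T23F1.t2 (Pro-TGG), which face each other 67 bp apart outside any protein-coding gene. Its pooled signal was 108, with 65.3 in replicate 1 and 44.2 in replicate 2, a mean of 54.7 ± 14.9 (SD, n = 2), and it ranked 22 among nuclear peaks. On II, F49C5.t3 (Leu-AAG) and F49C5.t4 (Lys-TTT), on the strand opposite to their host gene nimk-1, shared a peak of 84.2 with 36.9 in replicate 1 and 41.7 in replicate 2. In both pairs the replicates were within 1.5-fold of each other.

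The strongest gene on IV was Y43D4A.t1, a Gly-TCC gene, with a pooled signal of 81.5, 32.8 in replicate 1 and 45.6 in replicate 2. Its neighbour and identical copy Y43D4A.t2 had 77.9, with 43.0 in replicate 1 and 31.2 in replicate 2, so that the order of these copies differed between the replicates. On III the strongest gene was sup-5, a tryptophan tRNA gene known for amber suppressor alleles, in an intron of fli-1, a gene related to the actin regulator flightless. Its pooled signal of 81.4 came from 59.0 in replicate 1 and 16.9 in replicate 2, a mean of 37.9 ± 29.7 (SD, n = 2). The replicate values of sup-5 thus lay 3.48-fold apart.

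Other strong genes were T21B4.t1 (Ile-AAT, in an intron of the collagen gene col-85) at 79.7, F52C9.t1 (Thr-TGT) at 77.9, Y39B6A.t9 (Phe-GAA) at 77.1 and C28A5.t2 (Arg-ACG, inside ceh-43, a Distal-less homeobox gene) at 75.4. The strongest genes without an identical copy were F57F5.t1, ZK783.t1 and F44A2.t1, whose sequences are shown above. F57F5.t1, an Ile-TAT gene with an intron, had 79.1 pooled, 54.9 in replicate 1 and 24.8 in replicate 2. ZK783.t1, a Glu-CTC gene inside the uridine phosphorylase gene upp-1, had 77.7, 52.1 and 26.8. F44A2.t1, an Ala-CGC gene, had 71.8, 53.2 and 19.5. In all 3 the signal of replicate 1 was the higher.

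By chromosome, a pooled peak was present at 37 of 57 genes on II (64.9%, interval 51.9% to 76.0%), 39 of 64 on III (60.9%, 48.7% to 71.9%), 37 of 71 on IV (52.1%, 40.7% to 63.3%) and 42 of 78 on V (53.8%, 42.9% to 64.5%). These intervals overlapped. The median pooled signal was 44.6 on II, 44.3 on III, 57.3 on IV and 45.5 on V. Chromosome IV thus had the lowest share and the highest median, and it had the largest share in the IDR list, 26.8% against 10.9% to 14.1% on II, III and V. The X chromosome, with 276 tRNA genes, had 66.7% (60.9% to 71.97%) with a median of 53.7, and the 66 genes on chromosome I had 48.5% (36.8% to 60.3%) with 43.6. In the IDR list were 29.0% of the genes on X, above the share on IV, and 13.6% of those on chromosome I. The differences between chromosomes were not tested.

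**Figure D1:**
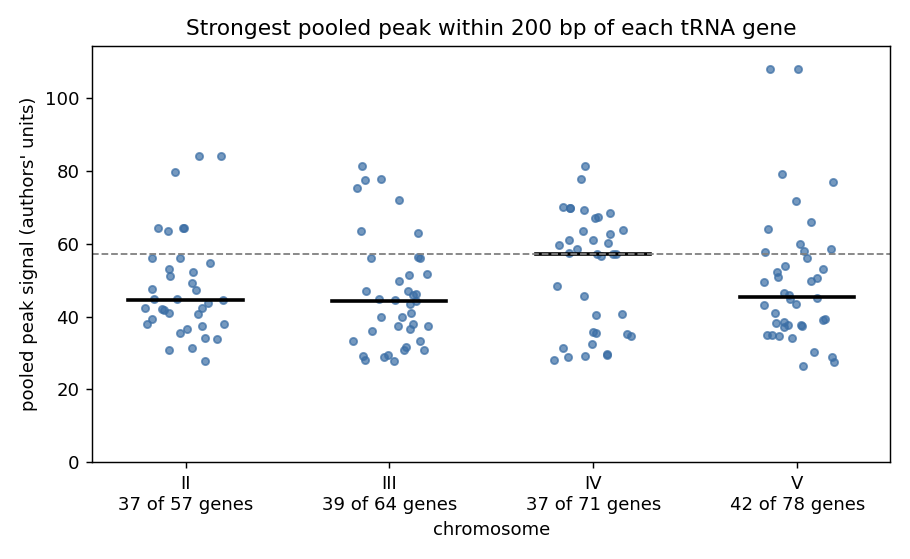
Pooled peak signal (authors' units, y axis) of each tRNA gene with a peak, by chromosome (x axis, with the genes called of all); bars are medians and the dashed line is the lowest signal in the IDR list, 57.3. The median of IV, 57.3, sits on that line, while the medians of II, III and V lie between 44.3 and 45.5.

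The centre of a chromosome was taken as 25% to 75% of its length and the arms as the rest. A pooled peak was present at 73 of 137 arm genes (53.3%, interval 45.0% to 61.4%) and at 82 of 133 central genes (61.7%, 53.2% to 69.5%), with medians of 45.7 and 45.5. On V the shares were 37.5% in arms and 65.2% in the centre, and on III 51.9% and 67.6%. On II they ran the other way in the pooled list alone, 71.4% in arms and 58.6% in the centre. In replicate 1 the centre of II had 82.8% and its arms 78.6%. The centre of II was also the higher in replicate 2, with 62.1%. On IV the arms were the higher in the pooled list, with 54.0% against 47.6%, and in both replicate lists. On III the arms were slightly the higher in replicate 2, with 66.7% against 64.9%. Arms and centre therefore had no common order over the 4 chromosomes.

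The replicates shared the order of the genes only in part. For the 134 genes with a peak in both lists the signals had a Spearman rho of 0.31 and a Pearson r of 0.33 on the log2 scale. These are descriptions across genes, some of which share a peak, and over the 128 distinct peaks rho was 0.29. Replicate 1 was higher at 100 of the 134 genes, with a median ratio of 1.34, while the medians of the entire lists had a ratio of 1.19. The median SD between replicates was 6.16 per gene, beside an SD of 8.18 among the genes' means, so most neighbouring ranks cannot be told apart.

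**Figure D2:**
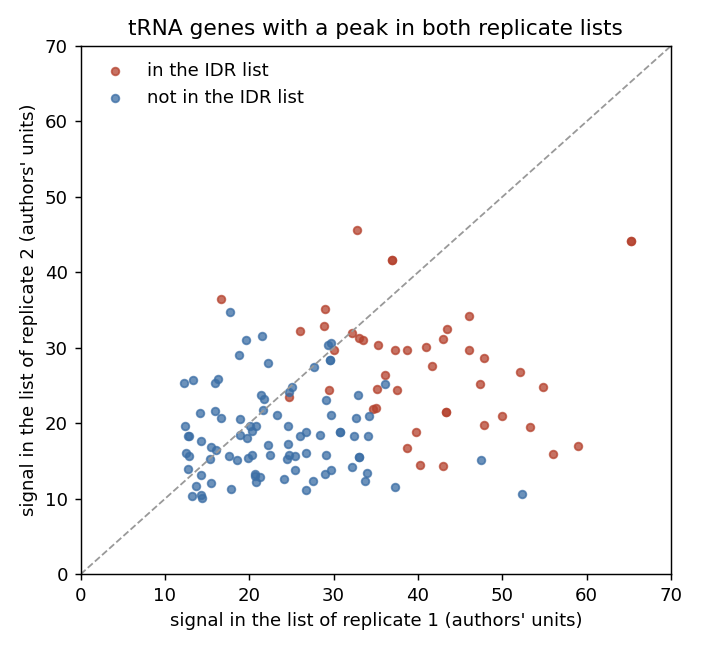
Signal in the list of replicate 1 (x axis) against that of replicate 2 (y axis), in authors' units, for the 134 tRNA genes with a peak in both; the dashed line marks equal values. Genes in the IDR list are red, others blue, and 100 of the points lie on the side where replicate 1 is higher.

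The widest ratio among genes with a pooled peak was 4.94, at Y65A5A.t1, an Ala-AGC gene on IV with 52.3 in replicate 1 and 10.6 in replicate 2. C05G6.t1 (Val-CAC) followed with 56.0 and 15.9, then sup-5, then C16D9.t4 (Tyr-GTA) with 37.3 and 11.5, and W02G9.t1 (Thr-AGT, inside ndx-2 of the Nudix hydrolase family) with 47.5 and 15.2. In all 5 replicate 1 was the higher. Among genes with a pooled peak but a gap in a replicate list, C16C8.t1 (Lys-CTT) and C16C8.t2 (Thr-AGT) shared a pooled peak of 56.1 with 44.5 in replicate 1 and none in replicate 2. K04C2.t3 (Lys-TTT, inside brd-1, the BARD1 homologue) and C06B8.t1 (Ala-CGC, inside the nuclear receptor gene nhr-150) likewise had 36.6 and 33.2 in replicate 1 alone. M01E10.t1 (Glu-CTC) was the reverse case, with 39.7 in replicate 2 alone and 46.3 pooled.

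Summits lay on or close to the genes. Measured from the 5′ end in the direction of transcription, the 155 pooled summits had a median position of 46 bp, with quartiles at -7 and 95.5 bp. Of them 69 (44.5%) lay inside the gene, 40 upstream and 46 downstream, and 84.5% lay within 100 bp of the middle of the gene. The rule reached 200 bp to each side, so summits spread evenly there would also have a median near the gene's middle. With summits within 100 bp 148 genes were called, and within 500 bp 166. The medians in the lists of replicates 1 and 2 were 35 and 33.5 bp. For the genes found in both lists, the summits of the replicates were a median of 62 bp apart, close to the length of a gene, so a position inside the gene was not resolved. Genes nearest the limit of 200 bp were W02G9.t1, inside it with a summit 192 bp away and a pooled signal of 53.9, and B0244.t1, a glycine gene left outside at 213 bp. Of the 115 genes without a pooled peak, 11 had their nearest pooled summit beyond 200 bp but no more than 500 bp away and 89 had it more than 1000 bp away.

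**Figure D3:**
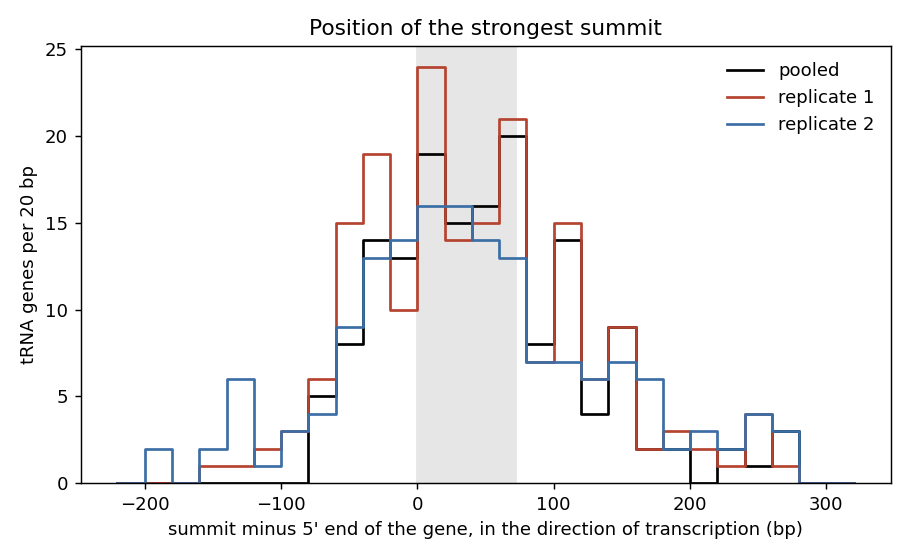
Number of tRNA genes per 20 bp (y axis) by the position of the strongest summit relative to the 5′ end of the gene, in bp along the direction of transcription (x axis); the grey band is a gene of median length. The pooled summits have their median at 46 bp, inside the band, and the lists of replicates 1 and 2 at 35 and 33.5 bp. Summits count only within 200 bp of the gene, so evenly spread ones would also have a median near its middle.

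Among the shared peaks, 3 on II fell between a Lys-CTT gene and a Thr-AGT gene that follow each other on the minus strand. They were C16C8.t1 and C16C8.t2, W09G10.t2 and W09G10.t3, and W10G11.t1 and W10G11.t2, with gaps of 104, 93 and 83 bp. The pooled signals were 56.1, 64.5 and 44.7, and the summits lay 48, 52 and 41 bp upstream of the threonine gene. At W09G10 the replicates had 43.3 and 21.5, and at W10G11 33.0 and 15.6, so replicate 1 was the higher at both. The summits of replicate 2 lay elsewhere, at -4 bp from the 5′ end of W09G10.t3 and at 36 bp, inside the gene, at W10G11.t2. At C16C8 replicate 2 had no peak. Which gene of a pair a peak belongs to cannot be told apart at this spacing. These pairs were chosen after their values were seen.

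By isotype the share of genes with a pooled peak ran from 4 of 4 cysteine genes to 3 of 11 histidine genes. Aspartate had 11 of 14 (78.6%, interval 52.4% to 92.4%), lysine 15 of 21 (71.4%, 50.04% to 86.2%) and leucine 13 of 19 (68.4%, 46.0% to 84.6%). At the low end were valine with 6 of 14 (42.9%, 21.4% to 67.4%) and asparagine with 5 of 12 (41.7%, 19.3% to 68.0%). Asparagine was low in the pooled list alone, with 10 of 12 genes in replicate 1 and 8 of 12 in replicate 2. Valine had 6 of 14 in each replicate list. In the pooled list the histidine interval, 9.75% to 56.6%, ended just below the share of all genes. All other isotype intervals held that share. The share said little of the level. The aspartate genes had the second highest share of the isotypes with a median signal of 35.8, while lysine had 56.1.

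**Figure D4:**
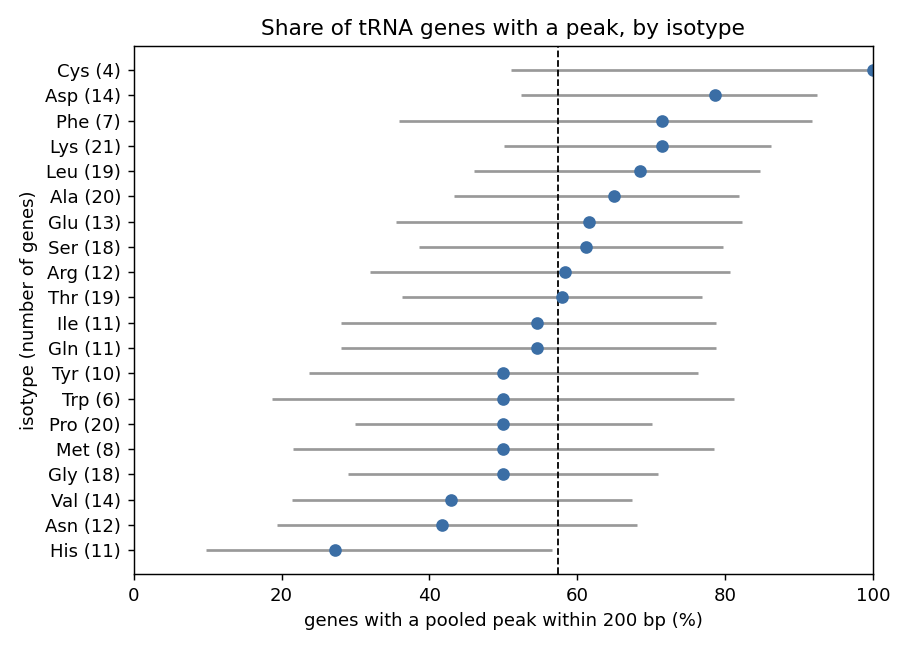
Percent of tRNA genes with a pooled peak (x axis) for each isotype (y axis, number of genes in brackets), with 95% Wilson intervals as grey bars; the dashed line is the share of all 270 genes, 57.4%. Only the histidine bar, ending at 56.6%, does not reach the line, and selenocysteine, with 1 gene and no peak, is left out.

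The strongest gene of each isotype not named so far ranged from Y65A5A.t4 (His-GTG) at 45.7 to K11H3.t2 (Ser-CGA, inside twk-48 of the TWK potassium channel family) at 71.9. Y65A5A.t4 had 21.4 in replicate 1 and 23.8 in replicate 2. F53F8.t1 (Cys-GCA) had a pooled signal of 65.9 with nearly equal values, 32.23 and 31.98, in the replicates. F41A4.t1 (Asp-GTC) had 63.9, with 30.03 and 29.65. T15B12.t1 (Met-CAT) had 62.9 with 47.3 and 25.2, and R04F11.t1 (Asn-GTT, inside twk-13 of the same channel family) had 56.1 with 32.8 and 23.8. The selenocysteine gene K11H12.t1, whose tRNA reads UGA codons in selenoprotein messages, had no peak in any list.

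Anticodons split some isotypes. All 4 Leu-CAA genes, B0285.t1, C14B9.t2, F22B7.t1 and ZK822.t1, had a peak in all 3 lists although each had a sequence of its own, with an annotated intron. Their pooled signals, 41.1, 43.5, 36.6 and 29.6, lay below the median of all genes. All 5 Glu-CTC genes had a pooled peak, from 39.8 to 77.7, against 3 of 8 Glu-TTC genes. Of the 6 Val-AAC genes only Y73F8A.t1 had one, at 35.4, against 3 of 4 Val-CAC genes. These anticodons were picked out after their values were seen, and with so few genes the intervals of the shares are wide.

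Genes with identical copies had peaks more often than genes with a sequence of their own. A pooled peak was present at 126 of the 197 genes with a copy (64.0%, interval 57.0% to 70.3%) and at 29 of the 73 without (39.7%, 29.3% to 51.2%). The order was the same in replicate 1, with 73.6% against 49.3%, and in replicate 2, with 65.5% against 42.5%. The levels differed little, with medians of 45.8 and 43.5. Shares were alike for genes with 2 to 9 copies (64.6%) and with 10 or more (63.6%). On II, IV and V the genes without a copy had the lower share, from 29.6% to 43.8%, while on III it was 9 of 14 against 30 of 50 genes with copies. How reads with several matching places were handled is not given, and its part in these shares was not tested. Genes for which 90% or more of the 50-mers in the gene and its flanks occur once in the genome had a pooled peak in 60.7% of cases, and the others in 44.6%.

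Identical genes did not share 1 state. The 19 sets with at least 5 identical genes on these autosomes held 136 genes, and 18 sets had some genes with a pooled peak and some without. The 5 identical Val-AAC genes had none, and no set had a peak at every gene. The highest share was 9 of 10 identical Asp-GTC genes. Among called genes of a set, the strongest exceeded the weakest by 1.04-fold to 3.51-fold, with a median of 1.96-fold. The 3.51-fold of the Pro-TGG set came from T23F1.t2, whose peak is shared with T23F1.t1 and has its summit inside T23F1.t1. Over the 30 sets with at least 2 called genes, the SD of log2 signal was 0.44 within sets and 0.46 over all 112 of their genes. Only called genes entered, some of them under a shared peak, and differences between replicates are part of both values. Whether a shared sequence has a part in the level of signal was not tested.

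**Figure D5:**
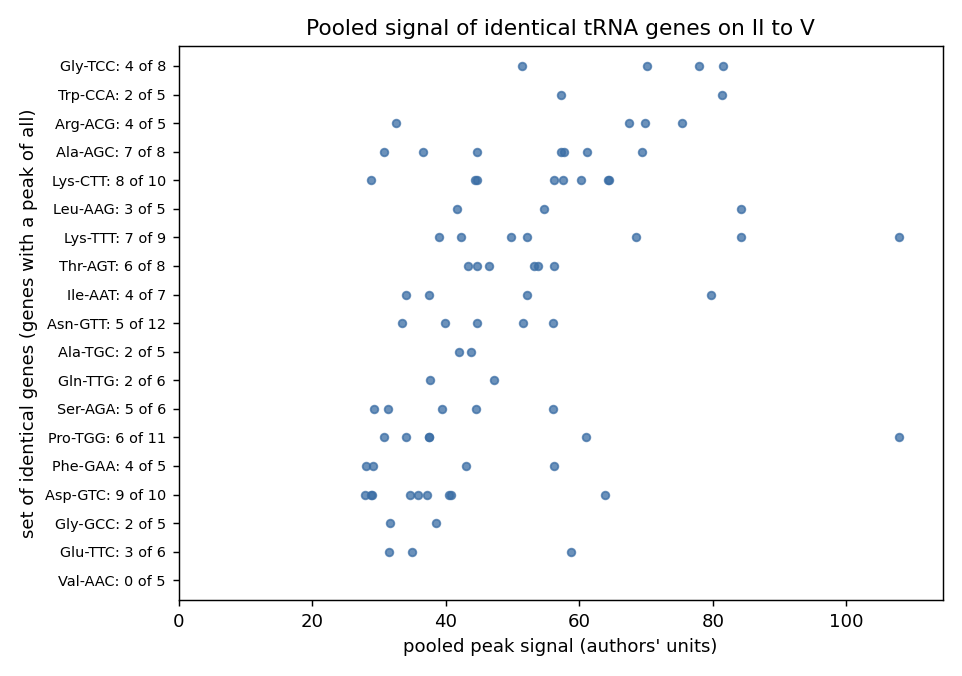
Pooled peak signal (authors' units, x axis) of each called gene in the 19 sets of at least 5 identical tRNA genes (y axis, with called genes of all in the set), ordered by median. The Pro-TGG set is the widest, with a 3.51-fold range, and the identical Val-AAC genes have no point. The highest Pro-TGG point is the peak that T23F1.t2 shares with T23F1.t1.

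Within sets the values were as follows for those with named members. Of the 9 Lys-TTT genes 7 had a pooled peak, from ZK994.t1 at 39.0 to T23F1.t1 at 108. Of the 11 identical Pro-TGG genes 6 had one, 30.7 to 108, and of the 8 identical Gly-TCC genes 4 had one, 51.4 to 81.5. The 108 is the peak that T23F1.t2 shares with T23F1.t1, and the next Pro-TGG gene, F02H6.t1, had 61.0. Of the 5 identical Trp-CCA genes, sup-5 had 81.4 and sup-24 had 57.3, rtw-6 and Y4C6B.t2 had 22.4 and 16.4 in replicate 1 alone, and sup-29 had no peak in any list. Like sup-5, sup-24 and sup-29 are known for amber suppressor alleles.

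A host gene, a protein-coding gene whose span holds the tRNA gene, was present for 155 genes, in 129 different hosts. A pooled peak was found at 92 of these (59.4%, interval 51.5% to 66.8%) and at 63 of the 115 genes without a host (54.8%, 45.7% to 63.6%). With the host on the same strand the share was 57.6% and on the opposite strand 61.9%. The median signals were 43.9 with a host and 46.9 without. Inside pxn-1, a peroxidasin gene, ZK994.t1, ZK994.t2 and ZK994.t3 all had pooled peaks, at 39.0, 52.2 and 53.2. Genes with another tRNA gene within 200 bp had a peak in 47.2% of 36 cases and the others in 59.0% of 234.

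The B box core was matched in 187 of the 270 genes, starting at a median of 53 bp from the 5′ end. Genes with the match had a pooled peak in 58.8% of cases and genes without in 54.2%. The match followed isotype: 0 of 14 aspartate, 0 of 11 glutamine and 0 of 4 cysteine genes had it. It was in 3 of 20 proline and 5 of 20 alanine genes, but in all 21 lysine and all 12 asparagine genes. The 2 shares thus compare an exact pattern, not genes with and without a B box. The A box part was matched in 125 genes, and 75 of these and 80 of the other 145 had a pooled peak. Counted with 200 bp to each side and on both strands, the B box core was in 70.7% of genes and in 3.63% of all windows of about that length on these autosomes, and the A box part in 55.2% and 11.7%. A run of TTTT within 30 bp after the 3′ end was present for 268 genes. The E-box CANNTG was in 83.9% of the stretches around genes with a pooled peak, 87.8% of those around genes without, and 81.7% of windows. The form CACATG was in 26.5%, 20.9% and 13.8%. Such matches describe the sequence and are not binding sites.

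A simple rule looked for an anticodon loop, a paired stem around a loop whose middle letters fit the annotated isotype, and found it in 259 genes with 46 different anticodons. The other 11 genes, 10 with an isotype and 1 without, had no pooled peak, and 9 of them had none in any list. T14B4.t1 (annotated Leu) had 12.5 in replicate 1 alone and C08E8.t3 had 17.1 in replicate 2 alone. All 11 lacked an identical copy, and the interval of their share reached up to 25.9%. Among the other 62 genes without a copy, 29 (46.8%, interval 34.9% to 59.0%) had a pooled peak. The B box core was matched in 8 of the 11. Their 50-mers were all unique in the genome. This group was noticed after its values were seen, and the rule does not show whether a gene is transcribed.

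The sequences of 5 of these 11 genes are shown so that their B box matches, in capitals, can be set beside those of the called genes above. The capitals nearer the 5′ end of K01A6.t1 mark its A box match.
K01A6.t1, annotated His, chrIV:11721149-11721236, plus strand: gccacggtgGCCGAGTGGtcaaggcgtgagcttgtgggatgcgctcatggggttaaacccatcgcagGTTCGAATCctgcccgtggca
T13B5.t2, annotated Thr, chrII:1102360-1102432, minus strand: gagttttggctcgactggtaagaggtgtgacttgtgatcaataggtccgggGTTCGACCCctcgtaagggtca
Y59A8B.t3, annotated Gly, chrV:17931078-17931146, plus strand: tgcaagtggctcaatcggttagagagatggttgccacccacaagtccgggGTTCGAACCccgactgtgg
C08E8.t3, with no isotype, chrV:18372881-18372953, minus strand: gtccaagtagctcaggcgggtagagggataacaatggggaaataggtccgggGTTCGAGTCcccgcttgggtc
Y51A2B.t1, annotated Ile, chrV:18373963-18374036, minus strand: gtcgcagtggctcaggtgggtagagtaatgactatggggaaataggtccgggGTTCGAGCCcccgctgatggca
K01A6.t1 lay in an intron of magi-1, a scaffold protein gene of the MAGUK family, and C08E8.t3 and Y51A2B.t1 lay 1010 bp apart on the right arm of V.

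Other genes that make, charge or transcribe tRNAs were counted by the same lists. Of 41 protein-coding genes matched from a list of 45 tRNA synthetases, polymerase III subunits and related factors, 2 (4.88%) had a pooled peak in the promoter, beside 9.03% of all protein-coding promoters. They were vars-1, the valyl-tRNA synthetase gene, at 30.5 with 14.9 and 14.4 in the replicates, and lars-1, the leucyl-tRNA synthetase gene, at 29.3 with 20.1 in replicate 2 alone. Neither was in the IDR list. In the replicate lists, 7 of the 41 (17.1%) had a promoter peak in replicate 1 and 13 (31.7%) in replicate 2, beside 23.4% and 25.8% of all protein-coding promoters. These shares lay below the background in replicate 1 and above it in replicate 2. The highest of them without a pooled peak was rpc-1, a gene for a subunit of RNA polymerase III, at 22.1 in replicate 2 alone. Among other noncoding genes that polymerase III is known to transcribe, 1 of 16 5S rRNA genes had a pooled peak, rrn-4.15 at 32.8. Most of the 16 lay close together on V, between 17115903 and 17131456, many under the shared name rrn-4.2. The called gene rrn-4.15 lay apart from them, at 17428879 on V. The handling of reads with several matching places is not given, and its part in this low count was not tested. The count therefore does not show that the other 5S genes lack signal. The RNA genes of RNase P, the enzyme that trims the 5′ end of tRNAs, and of the related RNase MRP both had IDR peaks, rpr-1 at 112 with 74.4 in replicate 1 and 36.9 in replicate 2, and mrpr-1 at 59.96 with 28.1 and 33.9. U6 snRNA genes were not analysed here.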

How the data were processed

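Peak lists on ce11 were used as deposited: a relaxed list per biological replicate, a pooled relaxed list called against a control, and an IDR list, per the file listings. The aligner, caller and handling of reads with several matches were not given in the sources used here. Each peak's signal is a deposited value of the authors with no stated scaling. The deposited −log10 q value was read but entered no result. Read depth is unknown. Genes came from Ensembl release 115 (WBcel235), isotypes and sequences from RefSeq. A summit was the peak's start plus its summit column, and positions count from 1. Shares have 95% Wilson intervals. The matching was tested on simulated data (Python 3.11.15, pandas 2.3.3, numpy 2.4.6, scipy 1.17.1). Promoters spanned 1000 bp before and 200 bp after a gene's 5′ end. Arms lay outside 25% to 75% of a chromosome's length. Named were the 12 strongest genes, the strongest per chromosome and isotype, up to 5 strong genes absent from 1 replicate list, the 5 widest replicate ratios, the 3 strongest without copies, their hosts, and called pathway genes. Other genes are named as examples chosen after their values were seen. Members, lists and rules were chosen with earlier results of these data known, and the E-box search, the anticodon loop rule, its allowance for Met, the positions allowed for box matches, and the splits by unique 50-mers and combined groups were added after the data were seen. The ce10 lists were not used.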

Additional observations from a re-analysis of the deposited data

How the results depend on the processing

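Most of the 44 alternative values differed from the reported ones by less than the interval or spread of the value. Those that moved further were 10. Without genes that have identical copies, the pooled share fell to 39.7%, that of replicate 1 to 49.3%, that of replicate 2 to 42.5% and the IDR share to 10.96%. With identical genes of a chromosome counted once, the IDR share was 22.0%. With summits within 500 bp the share was 76.7% in replicate 1 and 68.5% in replicate 2, and within 100 bp it was 51.9% in replicate 2. At the lowest signal of the IDR list, the pooled share was 16.3%. Leaving out either replicate, with the other list cut to the length of the pooled list, gave 45.2% to 52.2%, the lower value without replicate 1. The difference in share between genes with and without a host was 4.57 percentage points. Genes with a same-strand host, set against all other genes including those with an opposite-strand host, differed by 0.305 points. The shares were 57.6% with a same-strand host, 61.9% with an opposite-strand host and 54.8% without a host. No paired analysis was possible because there is 1 group. The split by identical genes with 50 bp flanks gave no value, since 0 genes had identical flanks. Unknown read depth and 2 replicates limit the precision of every signal.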
